A study of Mus musculus with 38 samples.

Results

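Rab proteins are small GTPases that mark the membranes of a cell, and the transcripts of 56 Rab genes were followed through cortical cell types and gliomas of the mouse. The members were all genes on the array whose symbol is Rab followed by a number, 56 of 15644 genes, each with 1 probe set. Another 10 genes whose symbols start with Rab, such as the Rab3 GTPase-activating and Rab11 interacting proteins, are not Rab proteins and were left out, and Rab5a and Rab5b are not analysed here. Of the 56 members, 45 passed the filter on low signal and were tested. The other 11 were too dim to test.

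The study used 38 one-colour Affymetrix arrays in 12 groups of mice with a mixed background of c57/bl6j, FVB and Swiss-Webster; the cortex donors were adult and no age is given for the tumour mice. RNA bound to tagged ribosomes was taken by translating ribosome affinity purification (TRAP), in which only the cells of 1 reporter line carry the tag, so that a group is as pure as the gene that drives its tag is specific. In wildtype cortex the lines named in the titles were Snap25 for neurons, Cnp1 for mature oligodendrocytes, Aldh1L1 for astrocytes, Pdgfra for oligodendrocyte progenitors and Olig2 for oligodendroglia of all stages (called cortical Olig2 cells here). Cortex total RNA was measured beside them. In mice with an induced glioma, RNA bound in Olig2 cells and total RNA were taken from 3 variants of the model, which the labels call the Pdgf, the Pdgf Cre and the Recruited tumour without spelling out their alleles. Each group had n = 3 arrays, except cortex total RNA with n = 5. Each cortical sample pooled 2 or more mice, and no pooling is given for the tumours. Cortex and tumours are separate datasets in the labels, so that dataset and tumour cannot be told apart.

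A Rab protein switches between a GDP-bound resting form and a GTP-bound form that sits on a membrane. Exchange factors (GEFs) load it with GTP, GTPase-activating proteins (GAPs) end the signal, and effectors such as motors and tethers are recruited in between. Different Rab proteins label the endoplasmic reticulum and Golgi, early, recycling and late endosomes, lysosomes, and secretory or synaptic vesicles, so the set that a cell translates reflects which transport routes it uses. Neurons are known for regulated release of synaptic vesicles, and oligodendrocytes for heavy membrane traffic to myelin.

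All levels are log2 signals after quantile normalization over the 38 arrays, and a level under 5.64 (a signal of 50) is called dim. A member passed a comparison with a Benjamini-Hochberg adjusted p under 0.05 over 9799 genes and at least a 2-fold difference in limma. The defining markers fitted the labels of the neurons, astrocytes, mature oligodendrocytes and progenitors, in which none of their own markers was dim, but the progenitor samples also carried mature oligodendrocyte markers (summed log2 signal 14.39 to 14.67, against 16.48 to 16.49 in mature oligodendrocytes), and neuron markers summed to between 14.61 and 15.01 in both oligodendroglial lines, against 15.99 to 16.10 in neurons and 10.95 to 12.55 in astrocytes. Their part in the Rab results was not tested. Of the 5 endothelial markers, all were dim in every bound group. Microglia and macrophage markers summed to 9.44 to 10.47 in Pdgf, 7.98 to 10.18 in Pdgf Cre and 8.11 to 12.66 in Recruited bound RNA. They summed to 7.18 to 7.46 in cortical Olig2 cells and 10.31 to 11.29 in cortex total RNA. The part of microglial RNA in the Rab results was not tested either. The deposited values of each group had a minimum of their own, which points to separate processing of each group and can make replicates look too alike. The median SD over genes ran from 0.0304 in neurons to 0.453 in Recruited total RNA, and whether p-values are too small for that reason was not measured. Array 3 of the Recruited tumour stood apart in both its bound and its total RNA, and results that rest on it are given with and without it.

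Rab genes differed between cell types about as often as other genes did, and the differences lay in particular members. Of the 45 tested members, 27 passed between astrocytes and neurons (14 higher and 13 lower in astrocytes), where 56.8% of all genes tested passed (27.6% higher, 29.3% lower), a share called the background here. Between mature oligodendrocytes and neurons 21 passed (6 higher, 15 lower, background 50.9%, 23.3% higher and 27.6% lower), and between progenitors and neurons 21 (10 higher, 11 lower, background 50%, 24.5% higher and 25.5% lower). Astrocytes and mature oligodendrocytes differed in 26 members (12 higher and 14 lower in astrocytes, background 53.9%, 25.8% higher and 28.2% lower), astrocytes and progenitors in 27 (13 higher, 14 lower, background 51.3%, 24.6% higher and 26.8% lower), and progenitors and mature oligodendrocytes in 16 (10 higher, 6 lower, background 38.7%, 18.8% higher and 19.9% lower). The direction split depends on the scale. Splits on the other scales, here and below, are given without a share over all genes and describe the members alone. With the deposited values as they are, members split 10 higher and 16 lower in astrocytes against neurons, 3 and 17 in mature oligodendrocytes, and 5 and 24 in progenitors, with the median of all genes at -0.66, -0.39 and -0.79. Progenitors against mature oligodendrocytes then split 7 and 8, and centring each array on its median gave 7 and 12 there, 6 and 22 in progenitors against neurons, and 21 and 11 in astrocytes against progenitors. Of 351 member differences that passed in all 19 comparisons of the study, 348 kept their direction under both other scalings wherever the gene was tested.

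**Figure D1:**
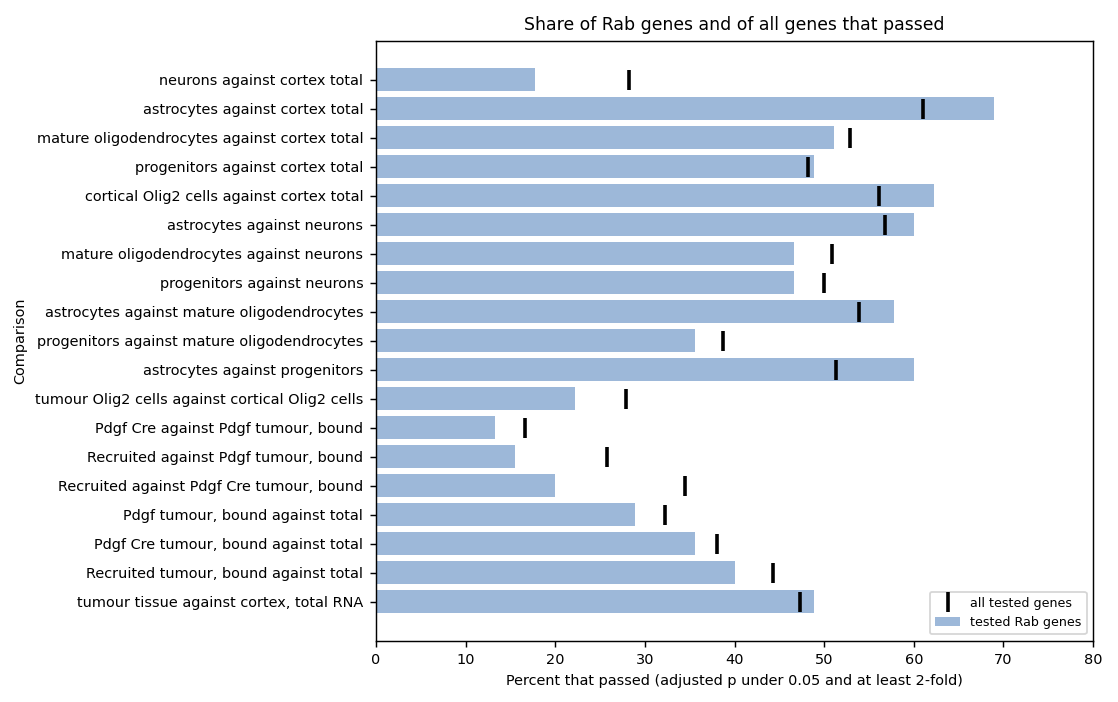
Percent of the 45 tested Rab genes that passed in each of 19 comparisons (bars, from 0) and percent of all 9799 tested genes that passed (black ticks). The bars lie on both sides of the ticks; astrocytes against cortex total RNA had the highest share of Rab genes, 68.9% against 61%.

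Among the 4 cortical cell types, 7 members were higher in neurons than in each of the other 3 types (Rab3a, Rab3b, Rab3c, Rab6b, Rab15, Rab26 and Rab40b; background 11.9%). Another 6 were highest in astrocytes (Rab5c, Rab13, Rab21, Rab29, Rab30 and Rab34; background 12.4%), 4 in progenitors (Rab8b, Rab11a, Rab20 and Rab32; background 4.65%) and 1, Rab4a, in mature oligodendrocytes (background 7.08%). Lowest in neurons were 4 members (Rab7b, Rab31, Rab32 and Rab33b; background 10.2%), and lowest in astrocytes 9 (Rab3c, Rab6a, Rab6b, Rab9b, Rab15, Rab26, Rab27b, Rab33a and Rab40b; background 13.6%). Some of these places rest in part on differences between dim levels. They are Rab32 in neurons against astrocytes and mature oligodendrocytes, Rab7b in neurons against progenitors, and Rab3c in astrocytes against both oligodendroglial types. Rab20 was dim in all 4 types. Rab3c passed the filter on low signal only through neurons and cortex total RNA, so its place in neurons was fixed by the filter. On both other scales the limit was missed by Rab5c in astrocytes against neurons, and Rab8b in progenitors against neurons and mature oligodendrocytes. It was also missed by Rab11a in progenitors against all 3 other types, Rab33b in progenitors against neurons, and Rab6a in astrocytes against progenitors (-0.81 and -0.38). Rab4a and Rab32 in mature oligodendrocytes against neurons missed it with deposited values (0.95 and 1.004). No pair of cell types passed for 7 members, Rab1a, Rab2a, Rab2b, Rab7, Rab10, Rab14 and Rab39b (background 15%). That count is near the background. Among these members, Rab1a and Rab2a act between endoplasmic reticulum and Golgi, and Rab7 at late endosomes. Over the 12 groups, the means of Rab1a, Rab2a and Rab7 spanned 0.77, 0.75 and 1.01. Those of Rab14, Rab2b, Rab10 and Rab39b spanned 1.44, 1.98, 2.01 and 2.92.

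**Figure D2:**
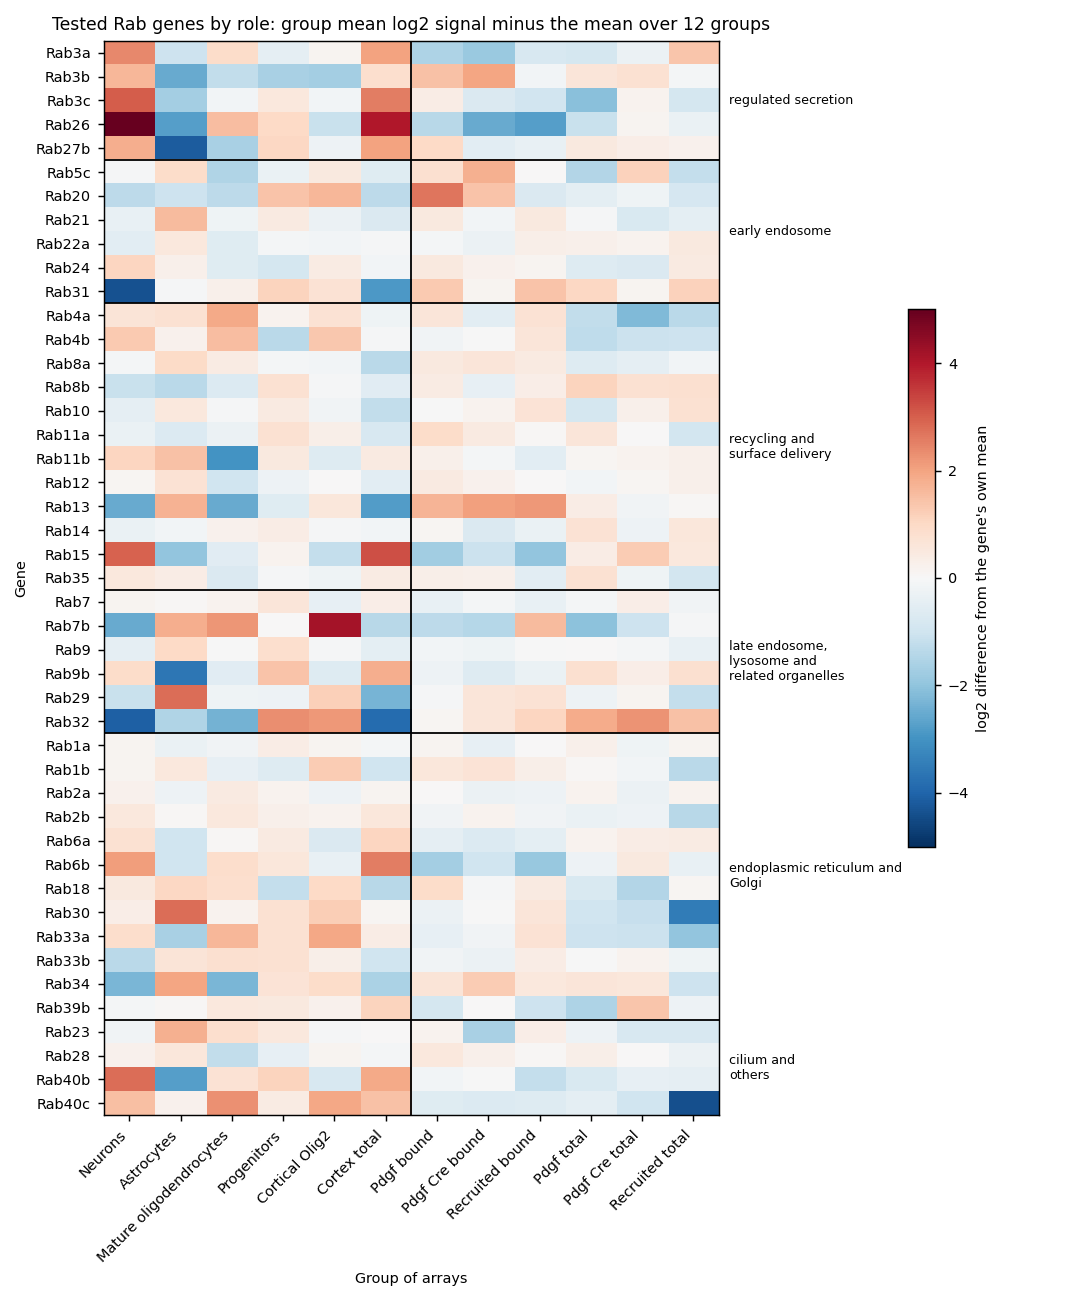
Mean log2 signal of each tested Rab gene in 12 groups minus the gene's own mean over the groups (colour, log2 units), with genes ordered by role and bound or total RNA of tumours to the right of the vertical line. The Rab3 genes, Rab15 and Rab26 are red in neurons and cortex total RNA, Rab31 and Rab32 are blue there, and Rab1a, Rab2a and Rab7 are pale throughout.

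The promoters of the 4 members named in most comparisons that the RefSeq table holds (Rab27b left aside) are shown as the sequence context of a neuron-high gene (Rab40b), an astrocyte-high gene (Rab13), a glia-high gene (Rab31) and a progenitor-high gene (Rab32). Each is the 250 bases before the transcription start, 5′ to 3′ on the gene's strand, from RefSeq on GRCm38.p6, and capitals mark the GC box GGGCGG, a motif of the Sp1 family searched on both strands, so that it may read as its reverse complement. The windows are chr17:65772753-65773002 (minus strand) for Rab31, chr3:90213465-90213714 (plus) for Rab13, chr10:10558208-10558457 (minus) for Rab32 and chr11:121388252-121388501 (minus) for Rab40b.
Rab31: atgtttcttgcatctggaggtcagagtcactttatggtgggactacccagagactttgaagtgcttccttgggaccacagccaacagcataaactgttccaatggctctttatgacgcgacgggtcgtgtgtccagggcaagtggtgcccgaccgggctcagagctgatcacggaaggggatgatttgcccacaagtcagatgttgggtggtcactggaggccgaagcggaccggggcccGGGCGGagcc
Rab13: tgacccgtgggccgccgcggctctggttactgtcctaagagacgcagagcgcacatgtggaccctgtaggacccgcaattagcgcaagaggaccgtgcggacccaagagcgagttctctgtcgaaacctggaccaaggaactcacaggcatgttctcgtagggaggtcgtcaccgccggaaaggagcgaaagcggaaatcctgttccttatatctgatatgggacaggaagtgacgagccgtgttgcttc
Rab32: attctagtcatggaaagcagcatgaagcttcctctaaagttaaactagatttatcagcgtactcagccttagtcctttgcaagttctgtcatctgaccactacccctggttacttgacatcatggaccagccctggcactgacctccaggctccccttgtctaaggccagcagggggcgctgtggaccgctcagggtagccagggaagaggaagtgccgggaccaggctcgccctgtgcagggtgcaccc
Rab40b: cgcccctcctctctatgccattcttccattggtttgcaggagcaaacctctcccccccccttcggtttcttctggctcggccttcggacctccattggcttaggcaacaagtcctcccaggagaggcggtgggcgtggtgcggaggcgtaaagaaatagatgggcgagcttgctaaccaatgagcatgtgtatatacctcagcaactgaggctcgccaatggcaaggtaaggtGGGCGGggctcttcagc
Rab31 and Rab40b, which go opposite ways between neurons and glia, each held 1 GC box, and neither Rab13 nor Rab32 held one. RefSeq promoters were found for 45 of the 56 members, in 57 windows. GGGCGG lay in 37 of these windows (64.9%), against 32.7% of all 32851 windows of that length and 42.6% of the windows of protein-coding genes. TATAAA lay in 3 member windows (5.26%, against 12.4% of all), the E-box CACGTG in 4 (7.02% against 6.02%), ACAAAG, bound by Sox proteins, in 2 (3.51% against 16.5%), and the cyclic AMP response element TGACGTCA in 1 (1.75% against 1.55%). A match describes letters in this window and is not a measured site.

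Most tested Rab genes of regulated secretion were lower in bound RNA of glia than of neurons. Of the 8 members with that role, 5 were tested. Of these, 5 were lower in astrocytes than in neurons (background 29.3% lower), 5 in mature oligodendrocytes (27.6%) and 4 in progenitors (25.5%). Their medians were -4.73, -3.16 and -2.87, against 0.00, -0.05 and -0.01 over all genes. Rab3c passed the filter on low signal through neurons and cortex total RNA alone, so its direction against glia was fixed by the filter. Rab3d, Rab27a and Rab37 fell below the filter. Rab3a, which sits on synaptic vesicles and regulates transmitter release, was 12.89, 12.90 and 12.53 on the neuron arrays, 9.11, 9.42 and 9.45 in astrocytes, 11.18, 11.20 and 11.44 in mature oligodendrocytes, and 9.90, 9.91 and 9.89 in progenitors. No glial array reached a neuronal one. The difference in astrocytes was -3.45 ± 0.51 (SE of the fit; adjusted p = 5.45e-07) and in progenitors -2.87 ± 0.51 (adjusted p = 1.22e-05), and mature oligodendrocytes were 2.83-fold under neurons (adjusted p = 0.0101). In cortex total RNA Rab3a had a median of 12.20 and a highest value of 13.19.

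Rab26, a Rab of secretory granules and synaptic vesicles, was 10.23, 10.14 and 10.06 in neurons, 6.31, 6.28 and 6.60 in mature oligodendrocytes, 5.71, 5.74 and 6.05 in progenitors, and at the lowest value of the scale, 2.08, on all 3 astrocyte arrays. Neurons were at least 22.7-fold above astrocytes, whose level is only bounded, and 13.4-fold above mature oligodendrocytes (adjusted p = 5.36e-10 and 0.000204). Cortical Olig2 cells were dim too, at 3.70 to 3.73.

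Rab27b, which docks secretory granules and takes part in exosome release, was shared by neurons and progenitors. Its levels were 9.74, 9.74 and 9.76 in neurons, at a lowest of 8.91 and a median of 8.98 in progenitors, 6.47, 6.49 and 5.97 in mature oligodendrocytes and 3.81, 3.71 and 3.81 in astrocytes. Progenitors did not pass against neurons, but they were 6.27-fold above mature oligodendrocytes (2.65 ± 0.28, adjusted p = 1.95e-09) and at least 9.97-fold above astrocytes. Its relative Rab27a was dim in every group, with means of 2.08 to 2.31.

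Within the Rab3 set, Rab3b and Rab3c followed Rab3a. Rab3b was 9.97 to 10.34 in neurons, 7.14 to 7.45 in mature oligodendrocytes, 6.78 to 7.13 in progenitors and 5.98 to 5.99 in astrocytes, which put neurons 18.1-fold above astrocytes (adjusted p = 2.60e-11). Rab3c was 7.81 to 7.84 in neurons and dim in every other bound group, which leaves a bound of at least 4.53-fold. Rab3d was dim in all groups, with means of 2.10 to 4.55. Neuron marker sums were 10.95 to 12.55 in astrocytes, 14.61 to 14.65 in mature oligodendrocytes and 14.83 to 15.01 in progenitors. The part of neuronal RNA in the Rab3 levels was not tested.

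**Figure D3:**
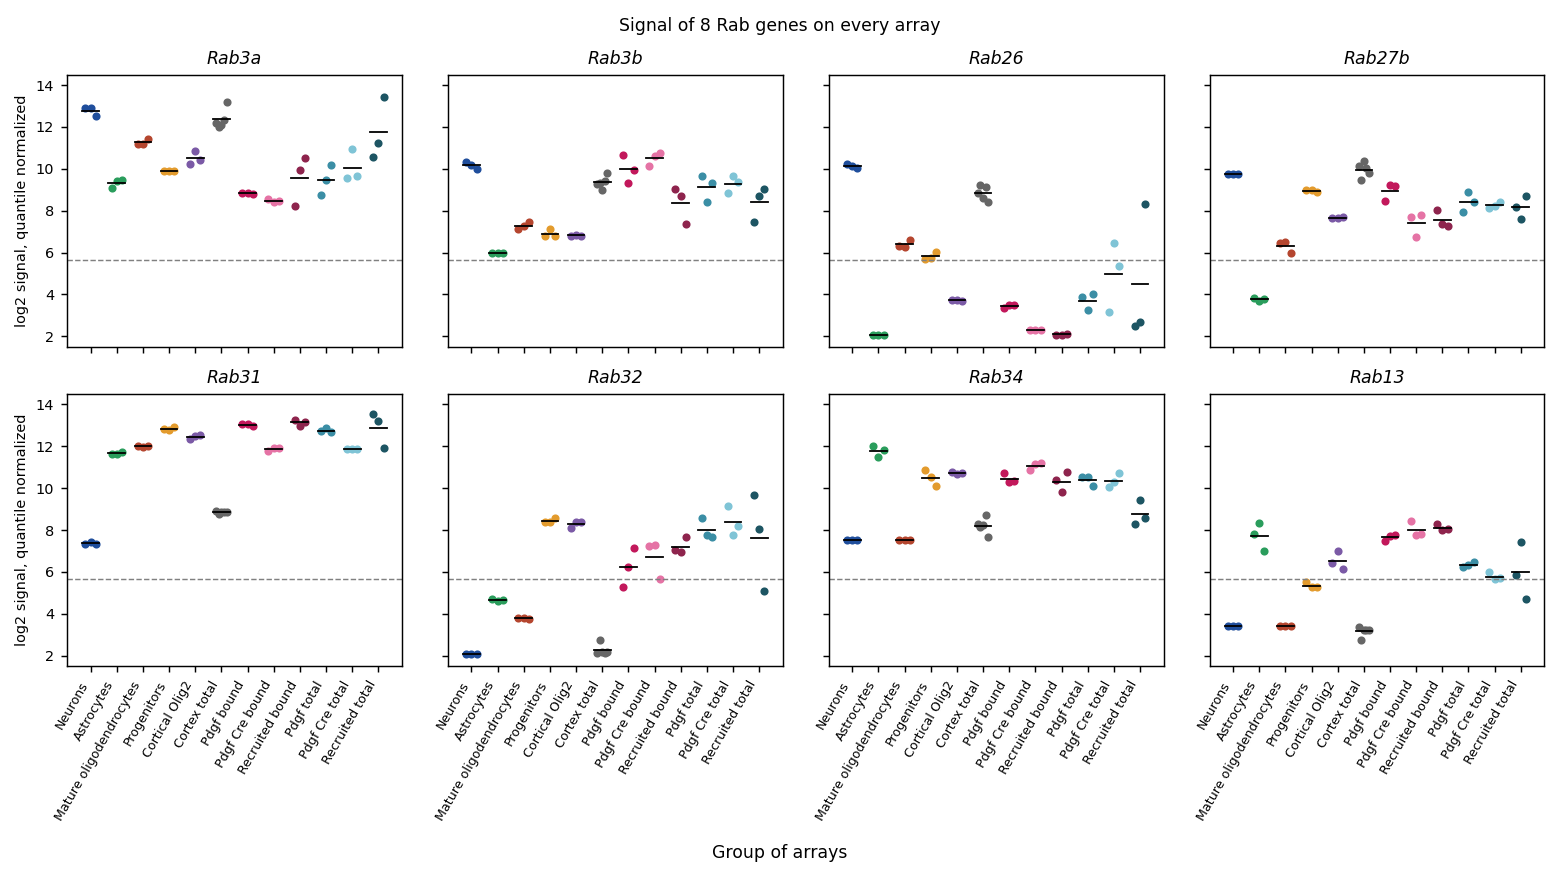
Log2 signal of 8 Rab genes on every array, with black bars for group means and a dashed line at the dim limit of 5.64. The group means of Rab3a and Rab26 are highest in neurons, that of Rab27b in cortex total RNA and that of Rab3b in Pdgf Cre bound RNA (10.50, against 10.17 in neurons); Rab31, Rab32, Rab34 and Rab13 are low in both, and Recruited total RNA is spread out, with Rab26 at 2.50, 2.66 and 8.33.

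On early endosomes, Rab31 was the glial member. Rab31 (also called Rab22b) moves cargo between the trans-Golgi network and endosomes. It was 7.32, 7.45 and 7.32 in neurons, 11.61, 11.65 and 11.75 in astrocytes, 11.97 to 12.02 in mature oligodendrocytes, and 12.85, 12.79 and 12.91 in progenitors. Every glial array stood more than 4 log2 units above every neuron array. The differences from neurons were 4.30 ± 0.20, 4.63 ± 0.20 and 5.48 ± 0.20, or 19.8-, 24.8- and 44.7-fold, with adjusted p of at most 7.85e-18. Neurons also lay 2.82-fold under cortex total RNA (8.78 to 8.90), but the difference was -0.93 on the deposited scale and -0.82 with median centring, short of 2-fold. The difference between astrocytes and progenitors (-1.18) was -0.14 with median centring.

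Rab21, which sorts integrins, was 12.02 to 12.15 in astrocytes and 10.10 to 10.15 in neurons (3.87-fold, adjusted p = 5.08e-14), and astrocytes were also 3.51-fold above mature oligodendrocytes. Rab5c, a Rab of early endosome fusion, was 8.68 to 9.01 in astrocytes, 7.81 to 7.93 in neurons and 6.28 to 6.74 in mature oligodendrocytes. Its 5.35-fold difference between astrocytes and mature oligodendrocytes held on every scale, while its place above neurons (1.01) was 0.28 on the deposited scale (adjusted p = 0.495). In progenitors Rab5c was 8.12, 8.18 and 6.58. Astrocytes did not pass against progenitors with only the compared groups in the fit (adjusted p = 0.059). Without progenitor array 3 that difference was 0.74. Of the 6 tested members of this role, 4 were higher in astrocytes than in neurons and 0 lower (Rab5c, Rab21, Rab22a and Rab31; background 27.6% higher and 29.3% lower), of which Rab5c and Rab22a missed the limit on both other scales. Rab20, a phagosomal Rab, was dim in every cortical cell type, at 4.39 to 5.30 in progenitors and 2.08 to 2.38 in the other 3, so its place in progenitors rests on dim signal.

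The recycling and surface delivery group was mixed, and close relatives went separate ways. Rab13, which delivers junction proteins to the cell surface, was 7.79, 8.31 and 7.01 in astrocytes, 5.26 to 5.51 in progenitors, and at 3.42 to 3.44 in neurons and mature oligodendrocytes. Cortical Olig2 cells also lay above the dim limit, and the highest group mean of Rab13 was in Recruited bound RNA (8.11). Of the 4 cell types, only the astrocytes were above the dim limit, at least 4.17-fold above the other types. Rab15, a Rab of endocytic recycling best known from neurons, ran the other way at 12.05 to 12.29 in neurons, 9.36 to 9.47 in progenitors, 8.65 to 8.66 in mature oligodendrocytes and 6.65 to 7.93 in astrocytes. Neurons were 30.0-fold, 11.4-fold and 6.68-fold above astrocytes, mature oligodendrocytes and progenitors.

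The recycling endosome Rabs Rab11a and Rab11b parted in oligodendroglia. Rab11b was 7.83, 7.84 and 7.90 in neurons, 8.23, 8.32 and 8.24 in astrocytes, 7.27, 7.30 and 7.28 in progenitors, and 3.79, 3.78 and 3.77 in mature oligodendrocytes. The mature cells were thus dim while their progenitors were not, with progenitors at least 3.11-fold, neurons at least 4.64-fold and astrocytes at least 6.15-fold higher. Cortical Olig2 cells, which hold both stages, lay at 6.12 to 6.15. Rab11a was 12.11 to 12.24 in neurons and mature oligodendrocytes, 11.79 to 11.90 in astrocytes and 13.25 to 13.29 in progenitors. Its difference of 1.10 between progenitors and neurons turned to -0.14 with deposited values and -0.05 with median-centred values, so its direction there depends on the scale.

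The fast recycling Rabs Rab4a and Rab4b both had their highest mean among the 4 cell types in mature oligodendrocytes. Rab4a was 10.10, 9.97 and 9.91 there, 8.47 to 8.92 in neurons, 8.61 to 9.20 in astrocytes and 7.95 to 8.85 in progenitors. Its 2.36-fold difference from neurons (adjusted p = 0.0169) was lost on the deposited scale (0.95, adjusted p = 0.0575) and without neuron array 2 (adjusted p = 0.0613), while that from progenitors was 3.33-fold (0.00165). The difference of Rab4a from astrocytes was lost without mature oligodendrocyte array 1 (adjusted p = 0.0601). It was also lost without astrocyte array 1 (0.0729) or astrocyte array 3 (0.0635). Rab4b was 10.93 to 11.18 in mature oligodendrocytes, 10.75 to 10.89 in neurons, 9.69 to 9.79 in astrocytes and 7.63 to 8.59 in progenitors. Progenitors were the lowest, 7.36-fold under mature oligodendrocytes (-2.88 ± 0.32, adjusted p = 5.04e-09).

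The exocytic Rabs Rab8a and Rab8b passed against neurons in different glia. Rab8a was 9.92 to 10.02 in astrocytes and 8.87 to 8.90 in neurons, which passed at 1.08 ± 0.14 and fell to 0.39 on the deposited scale. Rab8b was 12.60 to 12.79 in progenitors and 10.82 to 10.84 in neurons, a difference of 1.88 ± 0.26 that fell to 0.62 there. Of the other members of this role, Rab12 and Rab35 were lower in mature oligodendrocytes than in neurons (by -1.08 and -1.24), and Rab10 and Rab14 passed between no cell types.

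**Figure D4:**
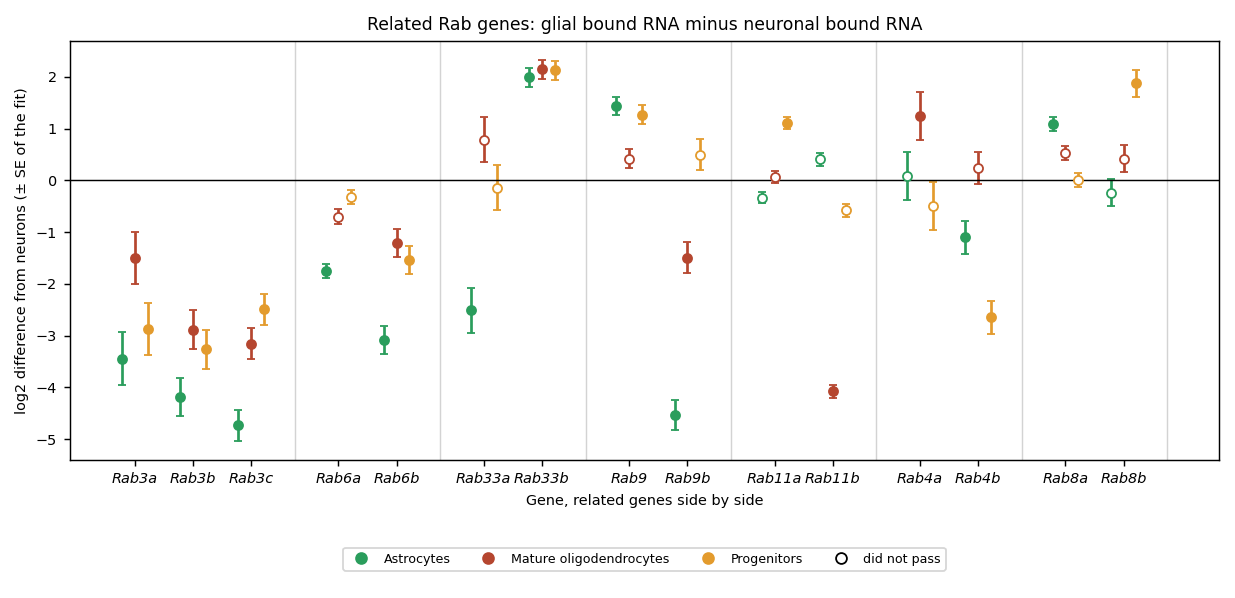
Differences from neurons (log2, points; bars are ± SE of the fit) for related Rab genes side by side in astrocytes, mature oligodendrocytes and progenitors; open points did not pass. Rab33b is near 2 in all 3 glia while Rab33a reaches -2.51 in astrocytes, and Rab11b passed in mature oligodendrocytes alone, where it is dim and at least 4.64-fold under neurons.

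Of the 6 tested late endosomal and lysosomal members, 4 were higher and 1 lower in astrocytes than in neurons (background 27.6% and 29.3%), 2 and 1 in mature oligodendrocytes (23.3% and 27.6%), and 3 and 0 in progenitors (24.5% and 25.5%). Rab29, a lysosomal Rab that recruits the kinase LRRK2, was 10.53, 10.64 and 10.69 in astrocytes against 6.65 to 6.78 in neurons, 7.59 to 7.62 in mature oligodendrocytes and 7.29 to 7.78 in progenitors. Astrocytes stood apart from all 3 other types, by 15.1-, 8.06- and 8.33-fold. Rab32, which builds lysosome-related organelles and binds protein kinase A at mitochondria, was 8.39, 8.40 and 8.58 in progenitors, 4.59 to 4.69 in astrocytes, 3.78 to 3.80 in mature oligodendrocytes and 2.08 in neurons. Progenitors were the only type above the dim limit, at least 7.02-fold over each of the others. Its relative Rab38 was dim in all groups, with a highest mean of 5.18 in the Pdgf bound arrays.

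Rab7b, which returns receptors from late endosomes to the Golgi, was 6.82 to 6.83 in mature oligodendrocytes, 6.43 to 6.46 in astrocytes, 4.64 to 4.66 in progenitors and 2.08 in neurons. Cortical Olig2 cells were higher still, at 8.54, 8.94 and 8.88. Rab7 itself, which drives fusion with lysosomes, ranged from 12.87 to 13.73 over all arrays of the 4 cell types, and no pair passed. Rab9, which retrieves mannose 6-phosphate receptors, was 14.55 to 14.70 in astrocytes and 13.11 to 13.23 in neurons (2.70-fold). Its relative Rab9b went the other way, at 4.78 to 5.04 in astrocytes against 9.24 to 9.59 in neurons, at least 13.6-fold less. Among the 4 cell types Rab9b had its highest mean in progenitors (9.85 to 9.94), less than 2-fold above neurons. Rab9 in progenitors over neurons (1.27) was only 0.07 on the deposited scale.

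At the endoplasmic reticulum and Golgi, Rab34 and Rab30 were higher in astrocytes than in each other cell type. Rab34, which positions lysosomes and takes part in cilium formation, was 12.01, 11.47 and 11.84 in astrocytes, 10.87, 10.52 and 10.09 in progenitors, and 7.50 to 7.53 in neurons and in mature oligodendrocytes. Astrocytes were 19.1-fold above neurons (4.26 ± 0.26, adjusted p = 4.92e-15) and progenitors 7.89-fold. Rab30, needed for Golgi structure, was 11.31 to 11.46 in astrocytes and 8.74 to 9.03 in neurons (5.52-fold, adjusted p = 1.71e-10).

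The Golgi Rabs Rab6a and Rab6b were both lower in astrocytes than in neurons, by 1.75 ± 0.14 for Rab6a (13.40 to 13.49 in neurons, 11.42 to 12.02 in astrocytes) and 3.08 ± 0.27 for Rab6b (11.25 to 11.27 and 8.05 to 8.39). Rab6b, known as the brain form, was also lower in mature oligodendrocytes (10.04 to 10.05) and progenitors (9.66 to 9.75), where Rab6a did not pass. Rab33a and Rab33b split neurons from astrocytes in opposite directions. Rab33a was 12.25 to 12.34 in neurons, 9.55 to 10.11 in astrocytes, 11.97 to 12.33 in progenitors and 13.06 to 13.11 in mature oligodendrocytes, so that only astrocytes stood apart from neurons, by -2.51 ± 0.44 (adjusted p = 7.63e-06). Rab33b, which acts with Atg16l1 in autophagy, was 11.12 to 11.17 in neurons and 13.09 to 13.40 on every array of the 3 glial types, 3.97- to 4.41-fold higher. In progenitors this difference of 2.13 was 0.89 with deposited and 0.98 with median-centred values. Rab18, a Rab of lipid droplets, was lower in progenitors (6.13 to 7.03) than in neurons, astrocytes and mature oligodendrocytes (8.12 to 8.87 in all). Of the 12 tested members of this role, 3 were higher and 3 lower in astrocytes than in neurons, close to the background of 27.6% and 29.3%.

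Among the members of other roles, Rab40b and Rab40c, which join a ubiquitin ligase through a SOCS box, differed in pattern. Rab40b was 8.86 to 8.96 in neurons, 7.20 to 7.21 in progenitors, 6.81 to 6.83 in mature oligodendrocytes and 3.29 to 3.40 in astrocytes, at least 9.68-fold under neurons. Rab40c had its highest mean in mature oligodendrocytes (8.96 to 8.98), followed by neurons (8.17 to 8.22), progenitors (7.06 to 7.09) and astrocytes (6.89 to 6.94). Its difference between mature oligodendrocytes and neurons was short of 2-fold. Rab23, a negative regulator of Hedgehog signalling, was above the dim limit in astrocytes alone (6.04 to 6.06, against 4.09 to 5.13 in the other 3 types). It passed the filter on low signal only through the astrocyte arrays. Its direction in astrocytes against any other group was therefore fixed by the filter, also where it enters the counts of members that passed.

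The genes that act on Rab proteins were counted beside the members. Of 87 tested genes for prenylation and chaperones, exchange factors, GAPs and effectors, 15 were higher and 34 lower in astrocytes than in neurons (background 27.6% and 29.3%). In mature oligodendrocytes 18 were higher and 21 lower (23.3% and 27.6%), and in progenitors 16 and 26 (24.5% and 25.5%). Their medians were -0.44, -0.23 and -0.31, against 0.00, -0.05 and -0.01 over all genes. Of the 34 effectors among them, 5 were higher and 15 lower in astrocytes, 4 and 13 in mature oligodendrocytes and 4 and 12 in progenitors, against the same backgrounds. These counts were made on the quantile-normalized scale alone. Rph3a, the Rab3 effector rabphilin, had a mean of 10.08 in neurons, 7.98 in mature oligodendrocytes and 7.55 in progenitors, and was dim in astrocytes (4.04). Myo5b, a motor of Rab11 endosomes, was at 9.27 in neurons, 6.04 in mature oligodendrocytes, and dim in progenitors (4.37) and astrocytes (2.69). In the glial direction, Fyco1, which links Rab7 membranes to kinesin, was dim in neurons (2.14) and at 6.87, 7.26 and 7.15 in astrocytes, mature oligodendrocytes and progenitors. Rin2, an exchange factor of Rab5, was dim in neurons (2.08) and at 8.67, 7.26 and 9.46 in these glia. Its relative Rin1 went the other way, at 9.30 in neurons, 7.35 in mature oligodendrocytes, and dim in progenitors (5.32) and astrocytes (2.09).

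Against cortex total RNA, where fewer cells of a type and less RNA per cell cannot be told apart, 8 members passed in neurons (6 higher, 2 lower, background 28.2%, 13.4% higher and 14.8% lower), 31 in astrocytes (18 and 13, background 61%, 31.1% higher and 29.8% lower), 23 in mature oligodendrocytes (11 and 12, background 52.9%, 25.2% higher and 27.7% lower), 22 in progenitors (14 and 8, background 48.2%, 24.4% higher and 23.8% lower) and 28 in cortical Olig2 cells (17 and 11, background 56.1%, 29.5% higher and 26.6% lower). The neuron count rests on the scale: 24 members were higher and 1 lower with deposited values, and 25 higher and 0 lower after centring each array on its median. Median centring also turned the splits to 24 and 11 in astrocytes and 18 and 7 in mature oligodendrocytes, with the median of all genes at 0.79, 0.63 and 0.56 in these 3 comparisons. None of the 5 tested secretory members passed between neurons and cortex total RNA, where their median was 0.48.

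Olig2 cells of the tumours were next set against those of the cortex. Of 45 members, 10 passed between tumour Olig2 cells (mean of the 3 models) and cortical Olig2 cells, 2 higher and 8 lower (background 27.9%, 13.5% higher and 14.4% lower). Rab3b stood out among those higher in tumours. It was 6.81, 6.83 and 6.81 in cortical Olig2 cells, 10.66, 9.34 and 9.95 in Pdgf, 10.16, 10.61 and 10.73 in Pdgf Cre, and 9.02, 8.71 and 7.36 in Recruited tumours. All 9 tumour arrays were above all cortical ones, and the mean difference was 2.80 ± 0.30 (6.96-fold, adjusted p = 5.35e-09). Cortical progenitors were at 6.78 to 7.13. Neuron marker sums were 10.42 to 12.47 in the tumour bound arrays (with 3 to 5 of 8 markers dim) and 12.82 to 13.66 in cortical Olig2 cells. The part of neuronal RNA in the Rab3b levels was not tested. Rab13 was the other, at 6.12 to 7.02 in cortical Olig2 cells and 7.47 to 8.44 over the tumours (2.64-fold, adjusted p = 0.000278).

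Of those lower in tumours, Rab40c fell on every array, from 8.55 to 8.71 in cortical Olig2 cells to 5.89 to 6.27 in tumours (6.01-fold, -2.59 ± 0.09, adjusted p = 2.18e-20). Rab7b dropped from 8.54, 8.94 and 8.88 to 3.23 to 3.36 in Pdgf and 2.59 to 3.82 in Pdgf Cre, but was 3.97, 5.68 and 8.91 in Recruited tumours, so that 1 array overlapped the cortex. Its mean was dim in Pdgf and Pdgf Cre tumours and not in Recruited ones, where it differed from the cortex by -2.60; the comparison over the 3 models passed with adjusted p = 1.54e-09. Rab32 was 8.11 to 8.40 in cortical Olig2 cells and 5.26 to 7.66 in tumours (-1.57 ± 0.51, adjusted p = 0.00986). Rab30 (-1.14) and Rab6b (-1.14) passed with separate arrays, and both missed the 2-fold limit after median centring (-0.96 and -0.98). Rab33a (-1.89), Rab3a (-1.55) and Rab4b (-1.20) passed with overlapping arrays. Of the 10 members, 9 also passed with the Recruited tumour left out, and Rab6b did not (-0.96). Leaving out any 1 array also gave 10 members.

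**Figure D5:**
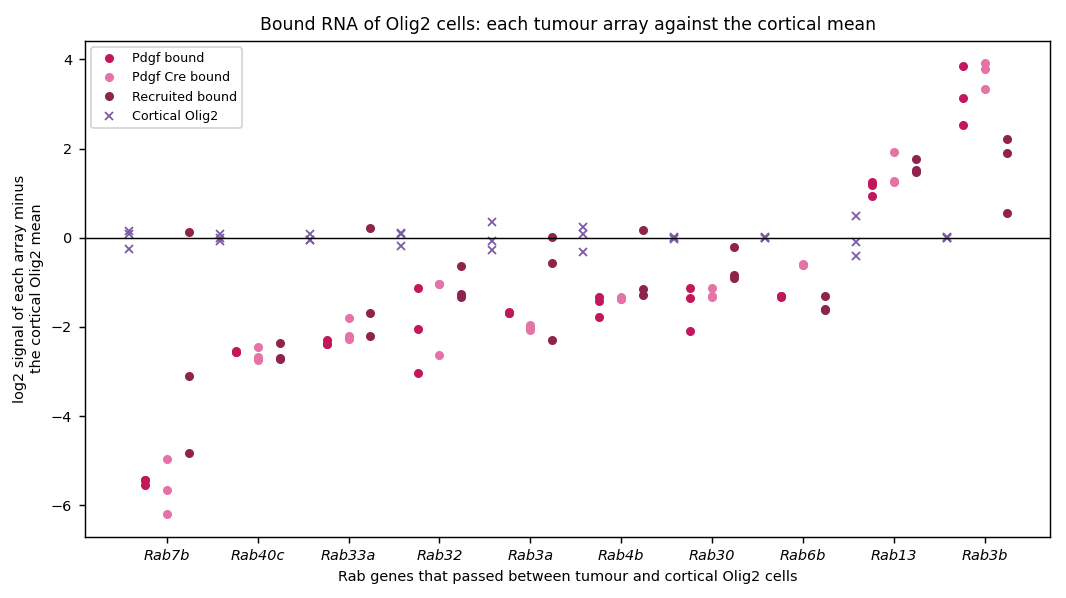
Log2 signal of each tumour array minus the mean of cortical Olig2 cells for the 10 Rab genes that passed (dots by model; crosses are the cortical arrays). Rab40c and Rab6b lie under 0 on all 9 tumour arrays and Rab3b above it; 1 Recruited array lies at or above 0 for Rab7b, Rab33a, Rab3a and Rab4b.

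The array that overlapped was array 3 of the Recruited tumour for each of these 4 members. For Rab7b it read 8.91, for Rab33a 13.57, against 11.15 and 11.67 on the other two, and for Rab4b 11.07, each close to cortical Olig2 cells. Mature oligodendrocyte markers on this tumour's bound arrays summed to 14.84, 16.01 and 16.55, against 16.08 to 16.12 in cortical Olig2 cells and 11.34 to 12.59 in the other models, and astrocyte markers to between 13.58 and 13.88, against 8.72 to 9.27. Their part in the Rab differences was not tested.

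Between models, 6 members passed in Pdgf Cre against Pdgf tumours (0 higher, 6 lower, background 16.6%, 7.77% higher and 8.87% lower), 7 in Recruited against Pdgf (2 higher, 5 lower, background 25.8%, 12.8% higher and 13% lower) and 9 in Recruited against Pdgf Cre (4 higher, 5 lower, background 34.5%, 17.5% higher and 17% lower). With deposited values the splits were 0 and 8, 3 and 3, and 11 and 2, and with median centring 0 and 9, 1 and 5, and 5 and 4. No share over all genes is given on these scales, so the splits cannot be set against a background. Rab27b was highest in Pdgf tumours (8.46, 9.21 and 9.16), against 7.69, 6.73 and 7.80 in Pdgf Cre and 8.03, 7.35 and 7.28 in Recruited, 2.89- and 2.62-fold lower (adjusted p = 5.61e-05 and 0.00013). Rab31 was lower in Pdgf Cre (11.76 to 11.92) than in Pdgf (12.99 to 13.05) and Recruited tumours (12.98 to 13.27), by 2.24- and 2.43-fold. Rab3b was lower in Recruited tumours than in the other two, by -1.62 ± 0.37 (against Pdgf) and -2.13 ± 0.37; the first was lost with only the compared groups in the fit (adjusted p = 0.0863). Rab5c was higher in Pdgf Cre (9.62 to 9.81) than in Recruited tumours (7.22 to 8.68), 3.34-fold.

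The Recruited tumour's Rab7b differences, at least 1.46-fold against both other models, were lost when only the compared groups entered the fit (adjusted p = 0.152 and 0.123), and moved from 2.87 to 1.51 against Pdgf without its array 3. Rab33a in Recruited against Pdgf fell from 1.12 to 0.41 without that array (adjusted p = 0.432), and Rab4a against Pdgf Cre from 1.26 to 0.75 (adjusted p = 0.187). Rab23, at 2.64 to 2.68 in Pdgf Cre and 4.42 to 4.67 in the others, and Rab3c, at 3.76 to 5.15, passed between models while dim on every tumour bound array. Rab4a in Pdgf Cre against Pdgf (-1.15) was at the edge of the threshold, with adjusted p = 0.049, and 0.0573 once replicate numbers formed a block. Rab20, above the dim limit in Pdgf tumours (5.85 to 6.39), was at 2.43 to 2.98 in Recruited tumours, at least 1.33-fold lower. Apart from the Pdgf bound arrays, only a Pdgf Cre bound array (5.91) was above the dim limit for Rab20. It thus passed the filter on low signal through the Pdgf bound arrays, and its direction against both other models was fixed by the filter. These Rab20 differences are among the lower ones in the counts between models.

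In total RNA, 22 members passed between tumour tissue and cortex, 7 higher and 15 lower (background 47.3%, 22.7% higher and 24.6% lower). The split was 10 and 11 with deposited values and 4 and 18 with median centring, again without a share over all genes. Rab31 was 11.86 to 13.54 in tumours and 8.78 to 8.90 in cortex (12.5-fold, 3.64 ± 0.14, adjusted p = 6.95e-20), and Rab32 5.09 to 9.66 against 2.15 to 2.75 (at least 5.09-fold). Rab13 and Rab29 were higher as well, by at least 1.32- and 3.32-fold. Of the members that were highest in neurons or shared by neurons and progenitors, several were lower: Rab26 by at least 9.18-fold, Rab3c by at least 3.25-fold, Rab6b 6.16-fold, Rab15 5.65-fold and Rab27b 3.20-fold. Rab3c passed the filter on low signal only through neurons and cortex total RNA, so its direction here was fixed by the filter. Rab3b did not pass (-0.25, -0.09 and -0.97 in Pdgf, Pdgf Cre and Recruited tumours). Rab40c, lower in tumour Olig2 cells, was also lower here, at 2.13 to 6.28 against 8.09 to 8.17. Neuron marker sums were 13.31 to 16.32 in tumour tissue against 15.90 to 16.13 in cortex, and microglia marker sums 12.68 to 15.38 against 10.31 to 11.29. Progenitor marker sums were 10.83 to 14.67 in tumour tissue against 9.24 to 10.05 in cortex, endothelial ones 7.25 to 10.46 against 5.16 to 5.77, and those of lymphocytes and granulocytes 5.64 to 11.42 against at most 4.12. Recruited array 3 was the one at 16.32 and read 8.33 for Rab26, 13.42 for Rab3a and 5.09 for Rab32, each toward the cortex. The part of these other cell types was not tested.

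Bound RNA of the tumours was also set against total RNA of the same model. Of 45 members, 13 passed in Pdgf (9 higher and 4 lower in bound RNA, background 32.2%, 16.9% higher and 15.3% lower), 16 in Pdgf Cre (8 and 8, background 38%, 20% higher and 18.1% lower) and 18 in Recruited tumours (13 and 5, background 44.3%, 24.1% higher and 20.2% lower). Rab15 and Rab6b were lower in bound RNA in all 3 models, Rab15 by 2.10, 2.34 and 2.50 and Rab6b by 1.44, 1.47 and 1.52, though Rab6b missed the limit after median centring (-0.61, -0.64 and -0.87). Rab4a (1.83, 1.69 and 2.08), Rab4b (1.12, 1.07 and 1.62) and Rab13 (1.32, 2.23 and 2.11) were higher in bound RNA in all 3, but with deposited values Rab4b missed the limit in Pdgf (0.69) and Pdgf Cre (0.71), Rab4a in Pdgf Cre (0.77) and Rab13 in Pdgf (0.45). With only the compared groups in the fit the Recruited count was 7, and there Rab4a, Rab4b, Rab13 and Rab6b did not pass (adjusted p = 0.136, 0.102, 0.0692 and 0.102). These splits follow the scale closely: they were 4 and 6, 2 and 11, and 10 and 11 with deposited values, and 27 and 1, 25 and 2, and 23 and 2 with median centring, where the median of all genes was 0.97, 0.91 and 0.84. Rab6a and Rab8b in Pdgf Cre tumours (-1.08 and -1.19) turned to 0.23 and 0.07 with median centring. With arrays of the same number paired, the counts remained 13, 16 and 18, with the same members. In Recruited tumours Rab26 (-2.41) was -0.49 without total RNA array 3 (adjusted p = 0.34), Rab6b was -0.86 without it, and Rab7b (1.64) was 0.28 without bound array 3 (adjusted p = 0.393).

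The 11 members below the filter were Rab3d, Rab17, Rab19, Rab25, Rab27a, Rab36, Rab37, Rab38, Rab39, Rab43 and Rab44. Epithelial Rab17 and Rab25 had highest group means of 2.32 and 2.08. Rab37, a Rab of secretory granules, was the brightest of them, reaching 6.59 and 7.51 on the bound Recruited arrays 2 and 3 and 4.53 on array 1. It was dim in every group mean but that one (6.21).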

How the data were processed

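The authors deposited 1 log2 signal per probe set and array, made with GCRMA (per the submitters' processing notes, no version given); RNA was amplified in 2 cycles and labelled with biotin, per the labels' protocols. Each group had a minimum of its own; whether GCRMA was run group by group is not given in the sources used here. Here the log2 values of 16395 probe sets (64 controls, 687 without a gene) were quantile normalized over 38 arrays, and a gene was kept where its signal passed 50 (log2 5.64) on 3 or more arrays (9799 of 15644). limma 3.58.1 in R 4.3.3 fitted 1 model of 12 groups (26 residual degrees of freedom) with Benjamini-Hochberg adjustment in each of 19 comparisons. The step was tested on simulated data. The number of arrays limits the precision. p-values measure the spread between arrays, which no label ties to separate mice in the tumours. No array duplicated another (highest correlation 0.9996).

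Members and lists were chosen with earlier results of these data known. Named members were, in the 6 cortical pairs, both tumour to cortex comparisons and each pair of models, up to 4 per direction with the largest difference among those that passed, with separate arrays and a mean above the dim limit, plus all of the Rab3, 4, 5, 6, 8, 9, 11, 27, 32/38 and 33 relatives; others were named after their values were seen. Promoters stand in for the proteins planned for the most often named members, for which no sequence table was used here. A level bound uses 5.64 for the dim group. Same-numbered bound and total arrays deviated together in the tumours (lowest correlation 0.43 in Pdgf Cre, 0.47 in Pdgf and 0.27 in Recruited), so numbers paired them there. Alternatives were the deposited and the median-centred values, other filters, only the compared groups, a replicate block, leaving out each array and, added after seeing the data, leaving out the Recruited tumour.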

Additional observations from a re-analysis of the deposited data

Results flagged for a closer look

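Of 45 members tested in the 5 arrays of cortex total RNA, 8 had 1 array far from the others by Dixon's ratio (gap over range, critical value 0.71; chance gives about 1 in 20). Array 5 was the one for Rab3a (ratio 0.717; 13.19, with the next at 12.33), Rab7b (0.887), Rab11b (0.747; 6.77 against 7.27 to 7.43), Rab18 (0.914; 6.80 against 6.18 to 6.23) and Rab39b (0.771). Array 2 was the one for Rab8a (0.815), Rab13 (0.722) and Rab32 (0.983; 2.75 against 2.15 to 2.16), the last 2 and Rab7b on dim signal.

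Differences between tumour models in bound RNA drew attention for 22 values. In Pdgf Cre against Pdgf they were Rab3c -1.10, Rab4a -1.15, Rab20 -1.25, Rab23 -1.80, Rab27b -1.53 and Rab31 -1.17. In Recruited against Pdgf they were Rab3b -1.62, Rab3c -1.31, Rab7b 2.87, Rab20 -3.40, Rab27b -1.39, Rab33a 1.12 and Rab40b -1.08. In Recruited against Pdgf Cre they were Rab3b -2.13, Rab4a 1.26, Rab5c -1.74, Rab7b 3.004, Rab20 -2.14, Rab23 1.93, Rab31 1.28, Rab39b -1.06 and Rab40b -1.19. Of these, Rab3c and Rab23 were dim in all 3 models. The direction of Rab20 against Pdgf tumours was fixed by the filter on low signal.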

How the results depend on the processing

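Of the 19 counts of members that passed, most stayed within 1.5 times under each alternative. The exceptions are given with the main count first. Neurons against cortex total RNA had 8, and 25 with deposited and 25 with median-centred values. Pdgf bound against total RNA had 13, and 28 with median centring. Pdgf Cre bound against total RNA had 16, and 27 with median centring. Pdgf Cre against Pdgf had 6, and 3 with the filter at log2 100, with 43 members tested. Recruited bound against total RNA had 18, and 7 with only the compared groups. The median SD over genes was 0.301 in Recruited bound and 0.453 in Recruited total RNA. The causes of these moves were not tested. Directions turned for Rab11a in progenitors against neurons (-0.14 with deposited and -0.049 with median-centred values) and, with median centring, for Rab6a (0.23) and Rab8b (0.071) in Pdgf Cre bound against total RNA. Of 351 member differences, 283 kept their call and direction with deposited values (50 lost the call, 1 turned, and the rest were not tested), 307 with median centring (41 lost, 3 turned), 331 with only the compared groups, 333 with the filter at log2 100 (1 lost, the rest not tested), 346 with the replicate block and 350 with no filter. Leaving out 1 array kept all counts within 1.5 times; they ranged from 4 to 9 for Pdgf Cre against Pdgf, 6 to 9 for Recruited against Pdgf, 8 to 11 for Recruited against Pdgf Cre, and 16 to 21 for Recruited bound against total RNA. With the replicate block the other counts moved by at most 2, as in 21 (from 23) for mature oligodendrocytes against cortex total RNA. Numbers did not pair cortical groups or models. Dim signal limits Rab3c, Rab20 and Rab23, and in part the places of Rab7b and Rab32 as lowest in neurons.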
